A study of Mus musculus with 4 samples.

Results

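Plasmacytoid dendritic cell markers are genes by which these interferon-producing cells are recognised among other blood and marrow cells. The 10 markers described here (Siglech, Ccr9, Spib, Runx2, Cox6a2, Klk1, Pacsin1, Lair1, Cd300c and Atp1b1) were taken by symbol from a table of 26026 genes. All 10 were found and all passed a filter of at least 1 RPKM on average over the libraries, as did 11786 genes in all. RPKM are reads scaled to the length of the transcript and to the size of the library.

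Messenger RNA was measured in mouse bone marrow-derived dendritic cell cultures (BMDC) grown with Flt3 ligand, the cytokine that carries marrow progenitors into the dendritic lineages. The groups were Nfkb1-/- cells (C57/B16) at day 3, wild-type cells (C57/B16) at day 3, Nfkb1-/- cells at day 5 and wild-type cells at day 5, with 1 library in each, and all received Flt3 ligand in the medium. The Nfkb1 gene encodes p105, the precursor of the NF-kB subunit p50. The sources used here do not give the age or number of the animals, the structure of the Nfkb1 allele or a sorting step. With 1 library in each group no test between groups was run, and every difference compares 2 libraries with no replicate check. The design names the interplay of RelA and p50 during differentiation as its question. Differences were taken on the scale of log2(RPKM + 1), where low genes appear less changed than they are. A gene is said to be past the size rule when that difference is at least 1 in absolute value. Ratios carry exact (Clopper-Pearson) 95% intervals from the reads recovered for each gene, which cover counting error only. Because the cultures were profiled in bulk, fewer cells of a type and less RNA per cell cannot be told apart in any of these values.

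Plasmacytoid dendritic cells sense viral nucleic acids in endosomes and answer with large amounts of type I interferon. In Flt3 ligand cultures they arise beside the conventional dendritic cells, cDC1 and cDC2. Their identity depends on the E protein Tcf4, which binds E-boxes in DNA, and on further transcription factors such as Spib, Runx2 and Irf8, while Id2 opposes E proteins. The marker genes are not all exclusive to these cells. Spib is also expressed in B cells, Runx2 in bone-forming cells, and Lair1, Cd300c and Atp1b1 in other leukocytes.

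RefSeq promoter windows (build GRCm38.p6, from 250 bases before to 50 after the annotated start) were matched for 9 of the 10 markers, Cox6a2 being the exception. The windows of 4 markers are shown because they stand for the different patterns found below. Siglech and Ccr9 were the nearest pair in expression pattern and were lower in the Nfkb1-/- libraries at both days. Cd300c was lower at day 5, and Lair1 was higher at both days. Capitals mark E-boxes (CANNTG, which reads the same on both strands).
Siglech (chr7:55767934-55768233, + strand): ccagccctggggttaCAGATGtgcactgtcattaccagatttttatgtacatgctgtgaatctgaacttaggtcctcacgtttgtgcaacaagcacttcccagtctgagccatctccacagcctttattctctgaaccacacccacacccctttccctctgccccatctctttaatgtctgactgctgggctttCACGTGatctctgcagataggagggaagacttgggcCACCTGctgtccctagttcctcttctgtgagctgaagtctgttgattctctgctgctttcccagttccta
Ccr9 (chr9:123766961-123767260, + strand): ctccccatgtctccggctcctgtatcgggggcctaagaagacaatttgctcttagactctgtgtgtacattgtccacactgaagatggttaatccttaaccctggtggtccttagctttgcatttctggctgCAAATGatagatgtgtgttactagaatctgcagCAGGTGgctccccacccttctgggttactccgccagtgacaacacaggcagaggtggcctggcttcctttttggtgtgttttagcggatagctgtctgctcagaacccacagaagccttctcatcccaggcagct
Cd300c (chr11:114960458-114960757, - strand): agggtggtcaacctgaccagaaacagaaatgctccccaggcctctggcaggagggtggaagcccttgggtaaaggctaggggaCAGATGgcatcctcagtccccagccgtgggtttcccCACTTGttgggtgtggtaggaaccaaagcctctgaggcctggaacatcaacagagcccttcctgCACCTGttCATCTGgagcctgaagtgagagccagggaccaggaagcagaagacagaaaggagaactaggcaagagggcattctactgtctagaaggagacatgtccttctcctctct
Lair1 (chr7:4063155-4063454, - strand): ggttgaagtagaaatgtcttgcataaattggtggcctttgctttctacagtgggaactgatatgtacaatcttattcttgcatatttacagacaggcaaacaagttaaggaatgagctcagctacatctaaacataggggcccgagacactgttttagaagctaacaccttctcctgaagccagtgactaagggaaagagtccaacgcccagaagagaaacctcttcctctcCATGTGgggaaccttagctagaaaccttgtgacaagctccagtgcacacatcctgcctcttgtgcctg
The windows hold 3 E-boxes at Siglech, 2 at Ccr9, 4 at Cd300c and 1 at Lair1, against a mean of 1.39 over all 32851 windows in the table. At least 1 E-box was found in 7 of the 9 marker windows and in 72.3% of all windows, so the motif is common and its presence alone sets no marker apart. The RUNX core TGTGGT, searched on both strands, was found in 4 marker windows (Siglech, Cd300c, Pacsin1 and Runx2) and in 16.8% of all. A loose NF-kB motif, GGG and CC with any 5 bases between them on either strand, was found in 6 marker windows and in 50.8% of all. The ETS-type motif GAGGAA, on either strand, was found at Siglech and Lair1 and in 28.3% of all windows. The interferon regulatory factor motif, a pair of GAAA with any 2 bases between them on either strand, was found at Cd300c and in 3.44% of all windows. At Ccr9 and at Cd300c an E-box match overlaps a match to the loose NF-kB motif. A match describes letters only and not binding.

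The library totals recovered from the steps in the RPKM values lay between 15255070 and 16215214 reads, so depth was alike in all 4. Nfkb1 stood at 56.0 and 64.7 RPKM in the Nfkb1-/- libraries at day 3 and day 5, against 74.8 and 114 RPKM in the wild-type libraries. Its ratio was 0.749 (0.717 to 0.782) at day 3, and at day 5 it was 0.568 (0.547 to 0.590), lower in each library labelled Nfkb1-/- but not absent. Values per gene leave unknown which parts of the transcript were read in these cells. The median of all genes that passed the filter was 0.13 for Nfkb1-/- against wild type at day 3 and 0.01 at day 5, and 0.16 for day 5 against day 3 in wild type. The marker differences at day 3 and over the wild-type days are to be read relative to those shifts.

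Siglech and Ccr9, which encode surface receptors of these cells, were lower in the Nfkb1-/- libraries at both days. Siglech encodes Siglec-H, the lectin of mouse plasmacytoid dendritic cells that signals through the adaptor DAP12. It stood at 11.6 RPKM in Nfkb1-/- cells against 23.1 RPKM in wild type at day 3, and at 15.7 RPKM in Nfkb1-/- cells against 43.5 RPKM in wild type at day 5. Neither Nfkb1-/- library reached the level of either wild-type library. Its ratio, Nfkb1-/- over wild type, was 0.503 (0.449 to 0.564) at day 3, and at day 5 it was 0.361 (0.329 to 0.397). On the log2 scale the difference was -0.93 at day 3, short of the size rule, and -1.41 at day 5, past it. After rescaling to a common median ratio or to the same sum of RPKM, the day 3 difference was also past the rule, at -1.09 and -1.02.

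Ccr9, the receptor for the chemokine CCL25 that directs these cells to gut and thymus, behaved alike. Its day 3 levels were 7.73 RPKM in Nfkb1-/- cells and 13.2 RPKM in wild type, and its day 5 levels 8.68 RPKM in Nfkb1-/- cells and 26.8 RPKM in wild type. The Nfkb1-/- libraries were again below both wild-type libraries. The ratio was 0.585 (0.501 to 0.682) at day 3, and at day 5 it was 0.323 (0.283 to 0.369), with log2 differences of -0.70 and -1.52. The day 5 difference of Ccr9 was the most negative among the 10 markers, and 0.84% of all genes tested lay below it. Part of the annotated Ccr9 exon bases, 18.8%, lies under exons of AC165425.1 on the other strand, and the use of strand in counting is not given in the sources used here.

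**Figure D1:**
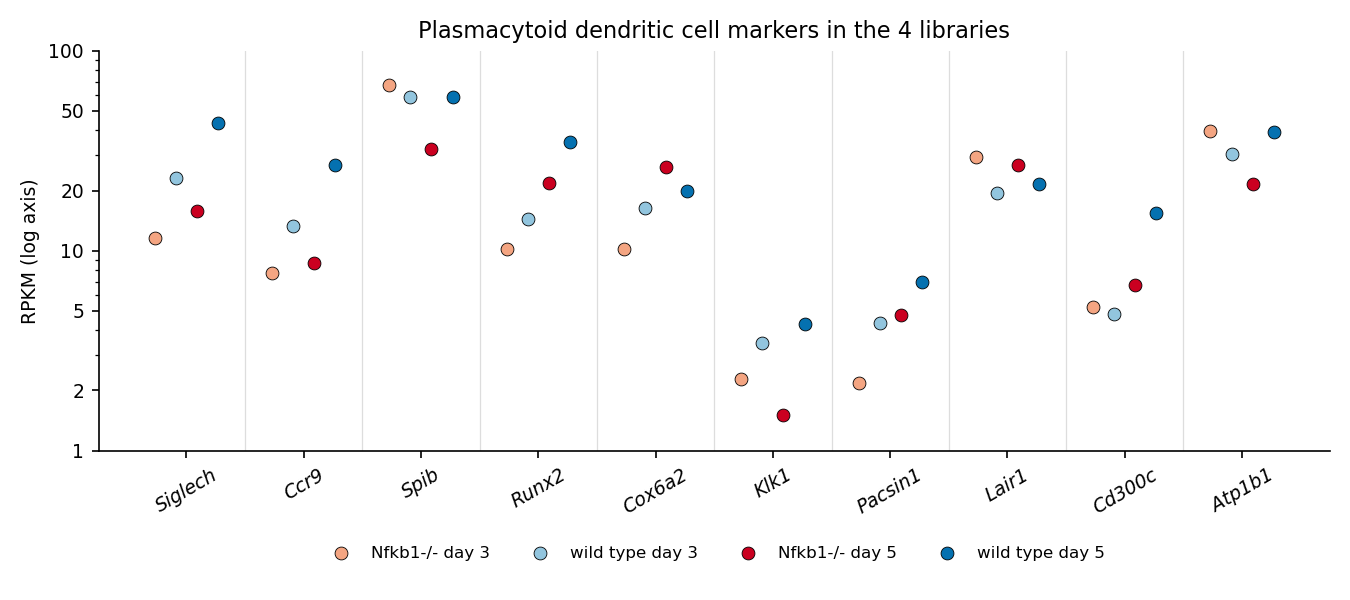
Level of each marker in RPKM on a log axis, with 1 point per library (Nfkb1-/- day 3, wild type day 3, Nfkb1-/- day 5, wild type day 5). The wild-type day 5 library was highest for 6 of the 10 markers, and an Nfkb1-/- library was highest for Spib, Atp1b1, Lair1 and Cox6a2.

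Lair1 and Cd300c, the other immunoglobulin-family receptors in the set, followed different courses. Lair1, an inhibitory receptor that binds collagen, was the only marker higher in the Nfkb1-/- libraries at both days. It stood at 29.4 RPKM in Nfkb1-/- cells and 19.4 RPKM in wild type at day 3, and at 27.0 RPKM in Nfkb1-/- cells and 21.6 RPKM in wild type at day 5. Its ratio was 1.52 (1.40 to 1.65) at day 3, and at day 5 it was 1.25 (1.15 to 1.35), neither past the size rule. Cd300c, an activating receptor of myeloid cells, had similar levels of 5.24 RPKM in Nfkb1-/- cells and 4.81 RPKM in wild type at day 3. At day 5 it stood at 6.75 RPKM in Nfkb1-/- cells and 15.5 RPKM in wild type. That gave a ratio of 1.09 (0.781 to 1.52) at day 3, where the interval includes 1 and the sign of the log2 difference turned negative (-0.04) under median ratio rescaling. At day 5 the ratio was 0.435 (0.341 to 0.553) and the log2 difference of -1.09 was past the rule. The high value of Cd300c in wild type at day 5 stood apart from its other 3 values.

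The transcription factors Spib and Runx2 differed from each other in course. Spib, an ETS factor of plasmacytoid dendritic cells and B cells, was the marker with the highest level in every library. It stood at 67.5 RPKM in Nfkb1-/- cells against 58.5 RPKM in wild type at day 3, and at 32.2 RPKM in Nfkb1-/- cells against 58.4 RPKM in wild type at day 5. Its wild-type levels were thus nearly equal at the 2 days, and the Nfkb1-/- day 5 library was the low one. Its ratio, Nfkb1-/- over wild type, was 1.15 (1.09 to 1.22) at day 3, and at day 5 it was 0.552 (0.517 to 0.590). The log2 differences were 0.20 and -0.84, short of the size rule at each day. Rescaling by the median ratio brought the day 3 difference to 0.03.

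Runx2, a Runt-domain factor needed for these cells to leave the marrow and, in bone, for osteoblast formation, was lower in the Nfkb1-/- libraries at both days. Its levels were 10.2 RPKM in Nfkb1-/- cells against 14.4 RPKM in wild type at day 3, and 21.9 RPKM in Nfkb1-/- cells against 34.9 RPKM in wild type at day 5. Within each day the Nfkb1-/- library was the lower one, and within each genotype the day 5 library was the higher one. The ratio was 0.710 (0.652 to 0.774) at day 3, and at day 5 it was 0.627 (0.592 to 0.664), with log2 differences of -0.46 and -0.65. An antisense gene, Runx2os1, covers 5.87% of its annotated exon bases.

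**Figure D2:**
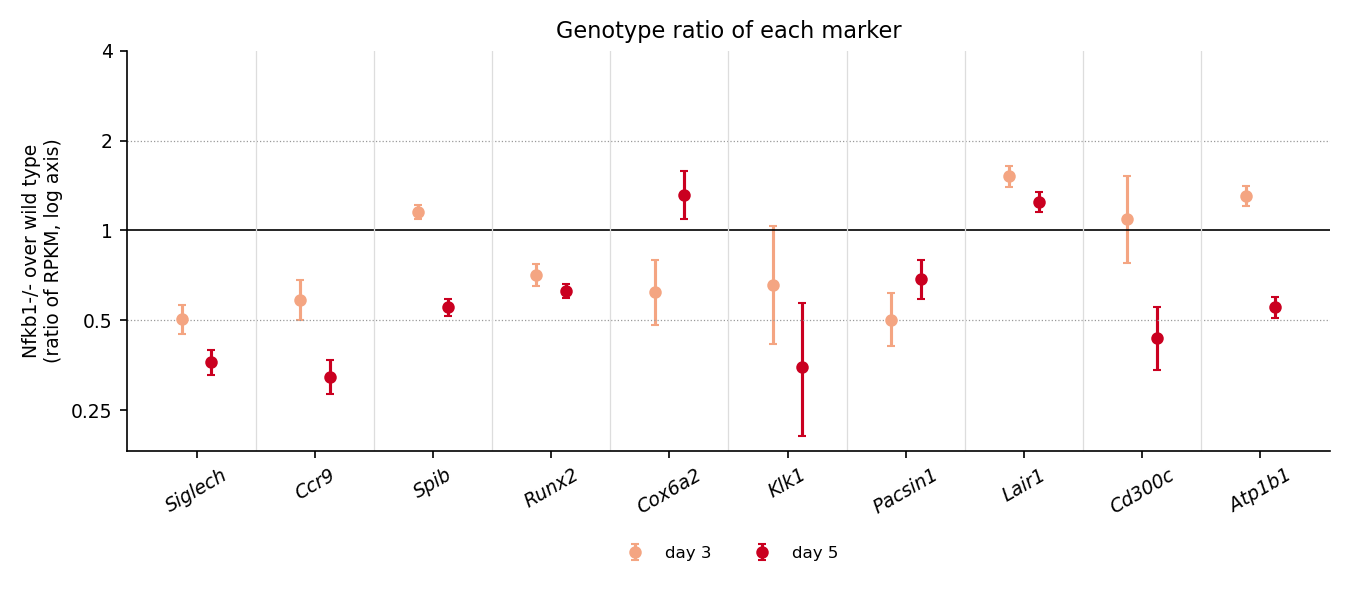
Ratio of Nfkb1-/- to wild type for each marker at day 3 and day 5 on a log axis, with exact 95% intervals of counting error and dotted lines at ratios of 0.5 and 2. Siglech and Ccr9 lie below 1 at both days, Lair1 lies above 1 at both days, and Spib and Atp1b1 pass from above 1 at day 3 to below 1 at day 5.

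The remaining markers encode enzymes, a membrane-shaping protein and an ion pump subunit. Pacsin1, an F-BAR protein best known from neurons, stood at 2.19 RPKM in Nfkb1-/- cells against 4.36 RPKM in wild type at day 3, and at 4.77 RPKM in Nfkb1-/- cells against 6.96 RPKM in wild type at day 5. Its ratio was 0.503 (0.409 to 0.617) at day 3, and at day 5 it was 0.686 (0.591 to 0.794). Pacsin1 and Cox6a2 were the 2 markers whose genotype difference was less negative at day 5 than at day 3. Klk1, the tissue kallikrein, stood at 2.28 RPKM in Nfkb1-/- cells against 3.46 RPKM in wild type at day 3, and at 1.51 RPKM in Nfkb1-/- cells against 4.32 RPKM in wild type at day 5. These values rest on 35 and 50 reads at day 3 and on 22 and 66 reads at day 5. The ratio was 0.659 (0.415 to 1.03) at day 3, an interval that includes 1, and 0.349 (0.205 to 0.573) at day 5, where the log2 difference was -1.09 and past the rule. Of the 50-base stretches of the Klk1 transcript, 28.4% also occur in other genes, mostly the Klk1b kallikreins, so its reads are uncertain where counting could split them. The corresponding share was under 1% for each of the other 9 markers, with Cd300c judged from another transcript of the gene.

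Cox6a2, the heart and muscle isoform of a cytochrome c oxidase subunit that is also a marker of these cells, was lower in the Nfkb1-/- libraries at day 3 and higher at day 5. It stood at 10.2 RPKM in Nfkb1-/- cells against 16.4 RPKM in wild type at day 3, and at 26.3 RPKM in Nfkb1-/- cells against 19.96 RPKM in wild type at day 5. The Nfkb1-/- libraries thus held both its lowest and its highest value. The ratio was 0.621 (0.483 to 0.796) at day 3, and at day 5 it was 1.32 (1.10 to 1.59), on between 109 and 267 reads. Its exons overlap those of Itgad on the other strand over 10.3% of their bases. Atp1b1, the beta subunit of the sodium-potassium pump, stood at 39.8 RPKM in Nfkb1-/- cells against 30.5 RPKM in wild type at day 3, and at 21.6 RPKM in Nfkb1-/- cells against 39.1 RPKM in wild type at day 5. The ratio was 1.31 (1.21 to 1.41) at day 3, and at day 5 it was 0.552 (0.508 to 0.600). Nme7 on the other strand covers 18.7% of the annotated Atp1b1 exon bases.

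Counted over the set, 0 of the 10 markers were past the size rule at day 3 in either direction, where 0.882% of all genes tested were lower and 0.976% higher by it. At day 5, 4 of the 10 were lower by the rule (Ccr9, Siglech, Cd300c and Klk1) and 0 higher, where 3.22% of all genes were lower and 1.16% higher. The median log2 difference of the markers was -0.45 at day 3 and -0.83 at day 5, beside medians of 0.13 and 0.01 over all genes. By sign, 5 markers were lower at both days, 1 was higher at both, 3 were higher at day 3 and lower at day 5, and 1 was the reverse. Over all genes the corresponding shares were 23.3%, 41.2%, 25.4% and 10.1%. With a pseudocount of 5 RPKM, 2 markers instead of 4 were lower by the rule at day 5 (Ccr9 and Siglech), where 0.899% of all genes were lower by it.

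**Figure D3:**
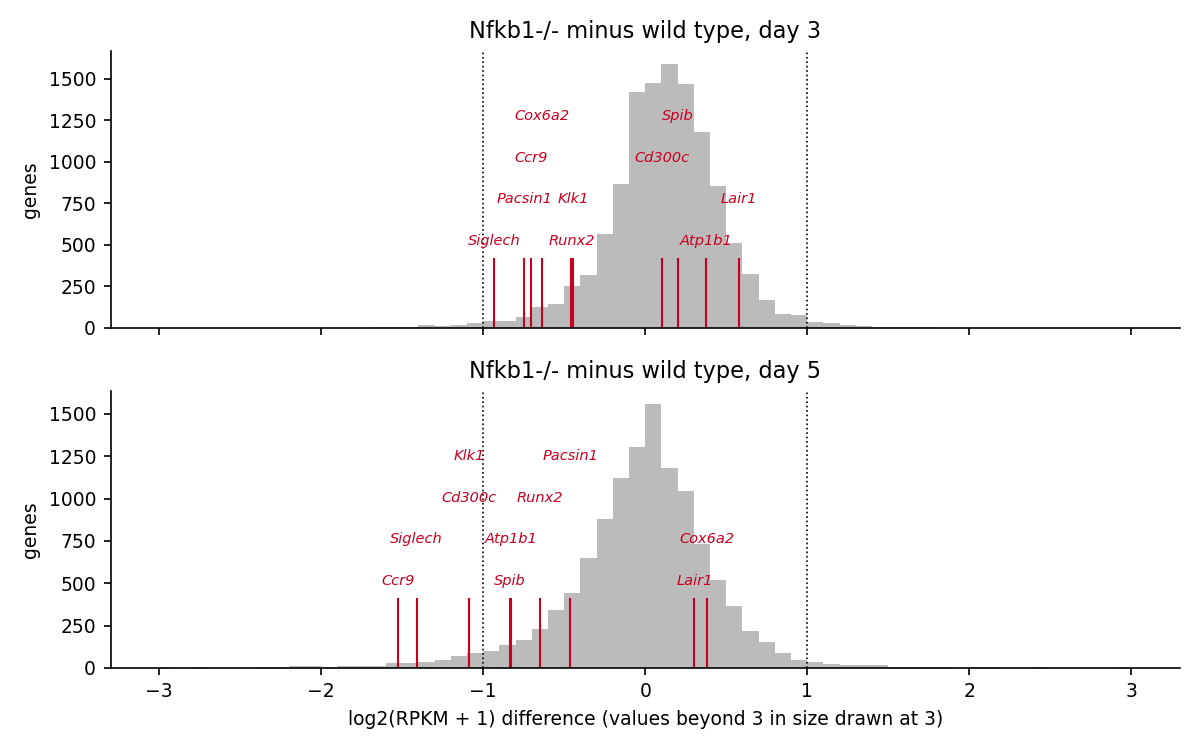
Number of genes by log2(RPKM + 1) difference of Nfkb1-/- minus wild type at day 3 (upper) and day 5 (lower), over the 11786 genes that passed the filter, with the 10 markers as red lines and the size rule as dotted lines. At day 5, 4 markers lie beyond the left line, while at day 3 none does.

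Over the culture days the markers differed in both directions in Nfkb1-/- cells, and 9 of 10 were higher at day 5 in wild type, where 69.3% of all genes were higher too. In Nfkb1-/- cells, Cox6a2 (1.29) and Runx2 (1.03) were higher by the size rule at day 5 and Spib (-1.04) was lower, where 0.594% of all genes were higher and 3.01% lower. The median there was 0.23, beside 0.04 over all genes, and 6 of the 10 lay above 0, as did 56.1% of all genes. Spib was no longer past the rule when libraries were scaled to the same sum of RPKM (-0.96), where 2.70% of all genes were lower by it. In wild type, Cd300c and Runx2 (1.23) were higher by the rule and 0 were lower, where 1.8% of all genes were higher and 2.05% lower. The median was 0.46, beside 0.16 over all genes, and Spib (-0.00) was the one marker not above 0. Lair1 (0.15) was slightly below 0 (-0.01) after median ratio rescaling.

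Each marker's own ratio of day 5 to day 3 shows where the genotypes part. Siglech had a ratio of 1.35 (1.20 to 1.53) in Nfkb1-/- cells and 1.88 (1.73 to 2.04) in wild type, and Ccr9 1.12 (0.948 to 1.33) in Nfkb1-/- cells and 2.03 (1.81 to 2.28) in wild type. Runx2 was higher at day 5 by more than 2 times in each genotype, with ratios of 2.15 (1.98 to 2.32) in Nfkb1-/- cells and 2.43 (2.28 to 2.60) in wild type. Atp1b1 had a ratio of 0.542 (0.499 to 0.589) in Nfkb1-/- cells and 1.28 (1.19 to 1.38) in wild type. Spib had a ratio of 0.478 (0.448 to 0.509) in Nfkb1-/- cells and 0.997 (0.944 to 1.05) in wild type, so these 2 markers held or gained in wild type and were lower at day 5 in the Nfkb1-/- libraries. Cd300c had a ratio of 1.29 in Nfkb1-/- cells, with an interval that includes 1, and 3.22 (2.46 to 4.26) in wild type, the highest day ratio of any marker. Cox6a2 showed the opposite order, with 2.58 (2.06 to 3.25) in Nfkb1-/- cells and 1.22 in wild type, with an interval that includes 1. Pacsin1 was higher at day 5 in each genotype, with 2.18 (1.78 to 2.67) in Nfkb1-/- cells and 1.60 (1.37 to 1.86) in wild type. The Klk1 ratio was 0.662 (0.370 to 1.16) in Nfkb1-/- cells and 1.25 (0.852 to 1.84) in wild type, and these wide intervals on few reads include 1. The Lair1 ratio was 0.918 (0.852 to 0.988) in Nfkb1-/- cells and 1.12 (1.02 to 1.22) in wild type. From day 3 to day 5 the genotype difference itself shifted downward by more than 1 for 3 markers, Atp1b1 (-1.20), Cd300c (-1.19) and Spib (-1.04), and upward for Cox6a2 (1.02). Over all genes, 2.63% were past 1 downward and 1% upward, with a median of -0.14. Spib was short of 1 after either rescaling (-0.89 and -0.92).

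**Figure D4:**
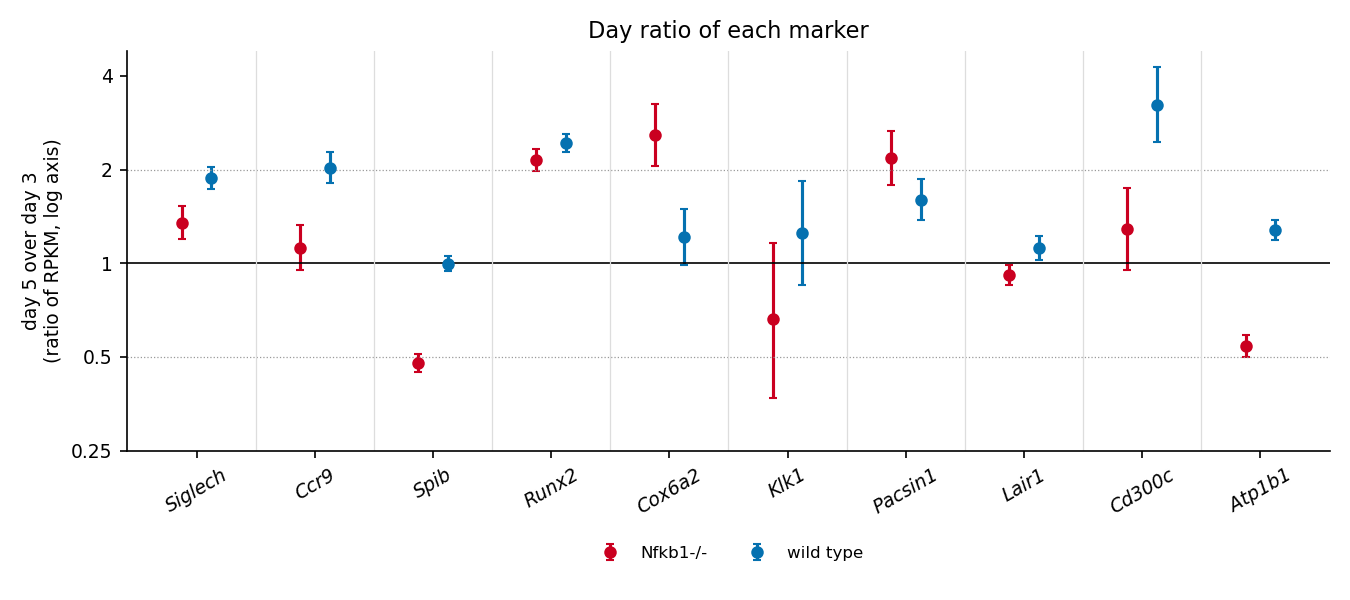
Ratio of day 5 to day 3 for each marker in Nfkb1-/- and wild-type cells on a log axis, with exact 95% intervals of counting error and dotted lines at 0.5 and 2. Runx2 lies near or above 2 in each genotype, while Spib and Atp1b1 lie near 0.5 in Nfkb1-/- cells and at or above 1 in wild type.

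In level, the markers spanned 2.19 to 67.5 RPKM in Nfkb1-/- cells and 3.46 to 58.5 RPKM in wild type at day 3, and 1.51 to 32.2 RPKM in Nfkb1-/- cells and 4.32 to 58.4 RPKM in wild type at day 5. Spib was first in each library, and Pacsin1 or Klk1 was last. Siglech took the fourth place in Nfkb1-/- cells and the third in wild type at day 3, and the sixth in Nfkb1-/- cells and the second in wild type at day 5. With 1 library each, no spread is at hand for the order. The lowest and highest level of a marker over the libraries differed by between 1.52 times (Lair1) and 3.74 times (Siglech).

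Patterns over the 4 libraries were compared by the distance between log2(RPKM + 1) values centred on each gene's mean, as a description of 4 points. Among the marker pairs, Siglech and Ccr9 were closest (0.20), followed by Spib and Atp1b1 (0.30) and by Runx2 and Pacsin1 (0.48), and Siglech and Lair1 were farthest apart (1.73). Among 8058 other genes whose mean reached 5 RPKM, the 5 nearest to Siglech were H2-Ab1 (0.07), H2-Eb1 (0.12), Ccr9 (0.20), Mir6927 (0.25) and H1f2 (0.25). The first 2 encode class II antigen presentation chains. Mir6927 is a short microRNA gene at between 3.47 and 15.7 RPKM, and the counting error of its place was not assessed. H2-Ab1 stood at 282 RPKM in Nfkb1-/- cells and 514 RPKM in wild type at day 3, and at 355 RPKM in Nfkb1-/- cells and 933 RPKM in wild type at day 5. Runx2 held rank 104 and Cd300c rank 108 in that order, while Spib held rank 4615 and Lair1 rank 7049.

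Other genes of plasmacytoid dendritic cells were taken from fixed lists of regulators, nucleic acid sensing genes and surface or secretory genes. Of the 9 regulators, 1 was past the size rule between genotypes, namely Irf8, with a difference of -1.01 at day 5. Over all genes, 3.22% were lower by the rule at day 5. Irf8, an interferon regulatory factor needed for cDC1 development and plasmacytoid function, stood at 94.1 RPKM in Nfkb1-/- cells and 109 RPKM in wild type at day 3, and at 119 RPKM in Nfkb1-/- cells and 241 RPKM in wild type at day 5. Tcf4, the E protein that specifies the lineage, stood at 12.3 RPKM in Nfkb1-/- cells and 13.7 RPKM in wild type at day 3, and at 18.6 RPKM in Nfkb1-/- cells and 20.5 RPKM in wild type at day 5. Its log2 differences between genotypes were -0.15 and -0.14. Id2, the inhibitor of E proteins, differed by 0.19 at day 3 and -0.68 at day 5. Irf7, which drives interferon transcription, differed by 0.13 and 0.46, and Zeb2, a repressor that favours plasmacytoid over cDC1 fate, by 0.23 and 0.47. The median of the regulators was 0.13 at day 3 and -0.06 at day 5.

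None of the 9 nucleic acid sensing genes in the table was past the rule between genotypes, with medians of 0.11 and -0.15. Tlr9, the endosomal receptor for CpG DNA, had the most negative difference of them at each day, -0.57 and -0.65. Its level was 17.2 RPKM in Nfkb1-/- cells and 26.0 RPKM in wild type at day 3, and 16.7 RPKM in Nfkb1-/- cells and 26.6 RPKM in wild type at day 5. Tlr7, the receptor for single-stranded RNA, differed by 0.28 and 0.07. The adaptor Myd88 was the most positive, at 0.56 and 0.64, and Slc15a4, an endosomal transporter, differed by 0.09 and -0.44. Of the 13 type I and III interferon genes, the main product of stimulated plasmacytoid dendritic cells, 12 stood at the value of 1 read in all 4 libraries and Ifnb1 at no more than 0.17 RPKM. No value in the table is 0 and 7985 genes share the value of 1 read in every library, so that value is the floor of the table and transcripts of these 12 were not detectable at this depth. Ifnb1 was above the floor in the Nfkb1-/- day 5 library alone, at 2 reads.

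Of the 17 surface and secretory genes that passed the filter, out of 18 listed, 6 were lower and 2 higher by the rule at day 5. At day 3 none was lower and 1 was higher. Over all genes 3.22% were lower and 1.16% higher at day 5, and 0.882% lower and 0.976% higher at day 3. Lower at day 5 were Klra17 (-1.56), a lectin receptor, the inhibitory receptor Lag3 (-1.27), Upb1 (-1.11), an enzyme of pyrimidine breakdown, Havcr1 (-1.09), the ribonuclease Rnase6 (-1.08) and Smim5 (-1.07). Higher were Ly6c2 by 1.03 at day 3 and 1.04 at day 5, and Dntt, the terminal transferase of lymphoid precursors, by 1.25 at day 5. Ly6c2 is shared with monocytes, where it marks the inflammatory subset. Bst2, a tethering protein of plasmacytoid dendritic cells, differed by 0.28 at day 3 and -0.39 at day 5, and Ly6d, a surface marker of their lymphoid precursors, by -0.00 and -0.71. The medians were -0.08 and -0.71.

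Family counterparts and partners of the markers were set beside them to see whether the differences were shared. Cox6a1, the ubiquitous isoform of the subunit, had levels of 126 RPKM in Nfkb1-/- cells and 104 RPKM in wild type at day 3, and 146 RPKM in Nfkb1-/- cells and 126 RPKM in wild type at day 5, so it lay above Cox6a2 in every library. Its genotype difference was 0.28 and 0.21. Spi1, the ETS factor PU.1 of the same subfamily as Spib, differed by 0.08 at day 3 and 0.01 at day 5, against 0.20 and -0.84 for Spib. Spic, another counterpart of Spib, differed by -0.65 and 0.12. Ccr7, the counterpart of Ccr9, was lower at both days as Ccr9 was, by -0.48 and -0.38, against -0.70 and -1.52 for Ccr9. Runx1 differed by 0.19 and -0.09 and Runx3 by 0.11 and 0.17, against -0.46 and -0.65 for Runx2. Pacsin2, the widely expressed syndapin, differed by 0.29 and 0.16, and Pacsin3 stood at 1 read in all libraries. Atp1b3 differed by 0.17 and 0.11, beside 0.37 and -0.83 for Atp1b1.

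Among the other Siglec and CD300 receptors, Cd22 of B cells was lower by the rule at day 3 (-1.05) and Cd33 at day 5 (-1.08), and Cd300e was higher at day 3 (1.13). Siglece, an inhibitory Siglec of myeloid cells, differed by -0.64 and -0.90. Cd300a differed by 0.12 and -0.39 and Cd300lf by -0.21 and -0.51. Siglecg differed by -0.28 and -0.75, and Cd300lg by -0.10 and -0.89. The kallikrein Klk1b27, which shares sequence with its family, was lower at day 5 by the rule (-1.26), at 0.29 RPKM in Nfkb1-/- cells and 2.10 RPKM in wild type. In all, 2 of the 21 counterparts that passed the filter were lower and 0 higher at day 5. The shares over all genes were 3.22% lower and 1.16% higher. By sign, 13 of the 21 were below 0 at day 3 and 12 at day 5, beside 33.4% and 48.8% of all genes. Of the 10 adaptors and partners, 0 were past the rule between genotypes. Tyrobp, which encodes the adaptor DAP12 of Siglec-H, differed by -0.07 and -0.33, and Cbfb, the partner of Runx factors, by 0.45 and -0.05. Hcst, which encodes the adaptor DAP10, had the most negative difference of them at day 5, -0.80. Ccl25, the ligand of Ccr9, stood at no more than 1.26 RPKM.

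Markers of other cell types differed between the libraries too. Beside the counts below, 0.882% of all genes were lower and 0.976% higher by the rule at day 3. At day 5 those shares were 3.22% and 1.16%. Summed over the list, cDC1 markers stood at 92.4 RPKM in Nfkb1-/- cells and 112 RPKM in wild type at day 3, and at 100.1 RPKM in Nfkb1-/- cells and 255 RPKM in wild type at day 5. By the rule 8 of the 9 that passed the filter were lower at day 5 and 0 at day 3. The cDC2 markers summed to 382.5 RPKM in Nfkb1-/- cells and 382.3 RPKM in wild type at day 3. At day 5 they summed to 317 RPKM in Nfkb1-/- cells and 363 RPKM in wild type. By the rule 1 of 9 (Cd4) was lower at day 3 and 3 at day 5. Sirpa and Itgam, the highest genes of that list, differed by 0.12 and -0.08 at day 5. The cDC2 median was -0.04 at day 3 and -0.84 at day 5, where 8 of the 9 were below 0 (48.8% of all genes). Neutrophil markers summed to 22850 RPKM in Nfkb1-/- cells and 32115 RPKM in wild type at day 3, and to 2858 RPKM in Nfkb1-/- cells and 13018 RPKM in wild type at day 5, with none of 10 lower by the rule at day 3 and 8 at day 5. Monocyte and macrophage markers, a population that can express Lair1 and Cd300c, summed to 476 RPKM in Nfkb1-/- cells and 359 RPKM in wild type at day 3 and to 517 RPKM in Nfkb1-/- cells and 402 RPKM in wild type at day 5. Of these 8 genes Cd14 (1.37) was higher and Adgre1 (-1.07) lower by the rule at day 5, and at day 3 none was past it. Erythroid markers summed to 53.8 RPKM in Nfkb1-/- cells and 254 RPKM in wild type at day 3, where 3 of the 4 that passed the filter were lower by the rule (Hba-a1, Hbb-b1 and Alas2). At day 5 all 6 mast cell and basophil markers, 4 of the 6 megakaryocyte markers, 1 of the 7 progenitor genes and 1 of the 4 erythroid markers were lower by the rule. The part of any of these cells in the marker differences was not tested.

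Spib is shared with B cells and Runx2 with bone-forming cells, so their marker lists were set beside these genes. B cell markers summed to 326 RPKM in Nfkb1-/- cells and 393 RPKM in wild type at day 3, and to 120 RPKM in Nfkb1-/- cells and 217 RPKM in wild type at day 5. Of the 9 that passed the filter, 3 were past the size rule as lower at day 3 and 4 at day 5. Over all genes, 0.882% were lower by it at day 3 and 3.22% at day 5. Cd79a, a subunit of the B cell receptor with the highest mean on the list, stood at 37.7 RPKM in Nfkb1-/- cells and 79.3 RPKM in wild type at day 5. Spib was likewise lower in Nfkb1-/- cells at day 5. At day 3 the B cell median was -0.42, with 7 of the 9 below 0 (33.4% of all genes), while Spib was at 0.20. From day 3 to day 5 all 9 were lower in each genotype, with medians of -1.18 in Nfkb1-/- cells and -0.84 in wild type. Spib differed by -1.04 in Nfkb1-/- cells and -0.00 in wild type. The part of B cells in the Spib differences was not tested. Stromal and osteoblast markers summed to 1.75 RPKM in Nfkb1-/- cells and 2.17 RPKM in wild type at day 3, and to 7.15 RPKM in Nfkb1-/- cells and 11.1 RPKM in wild type at day 5. The 3 that passed the filter, Col1a1, Col1a2 and Sparc, were below 0 between genotypes at each day, at -0.27, -0.59 and -0.47 at day 5, as Runx2 was. Over the days they were higher in each genotype, as Runx2 was, by 1.27, 1.25 and 0.74 in Nfkb1-/- cells and by 1.27, 1.79 and 1.08 in wild type. Bglap, an osteoblast gene, stood at 1 read in all libraries, and Sp7, another, at no more than 0.27 RPKM. The part of stromal cells in the Runx2 differences was not tested. T and NK cell markers summed to between 8.82 and 35.6 RPKM, with 3 of the 6 that passed the filter past the size rule as lower at day 3 and 2 at day 5.

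**Figure D5:**
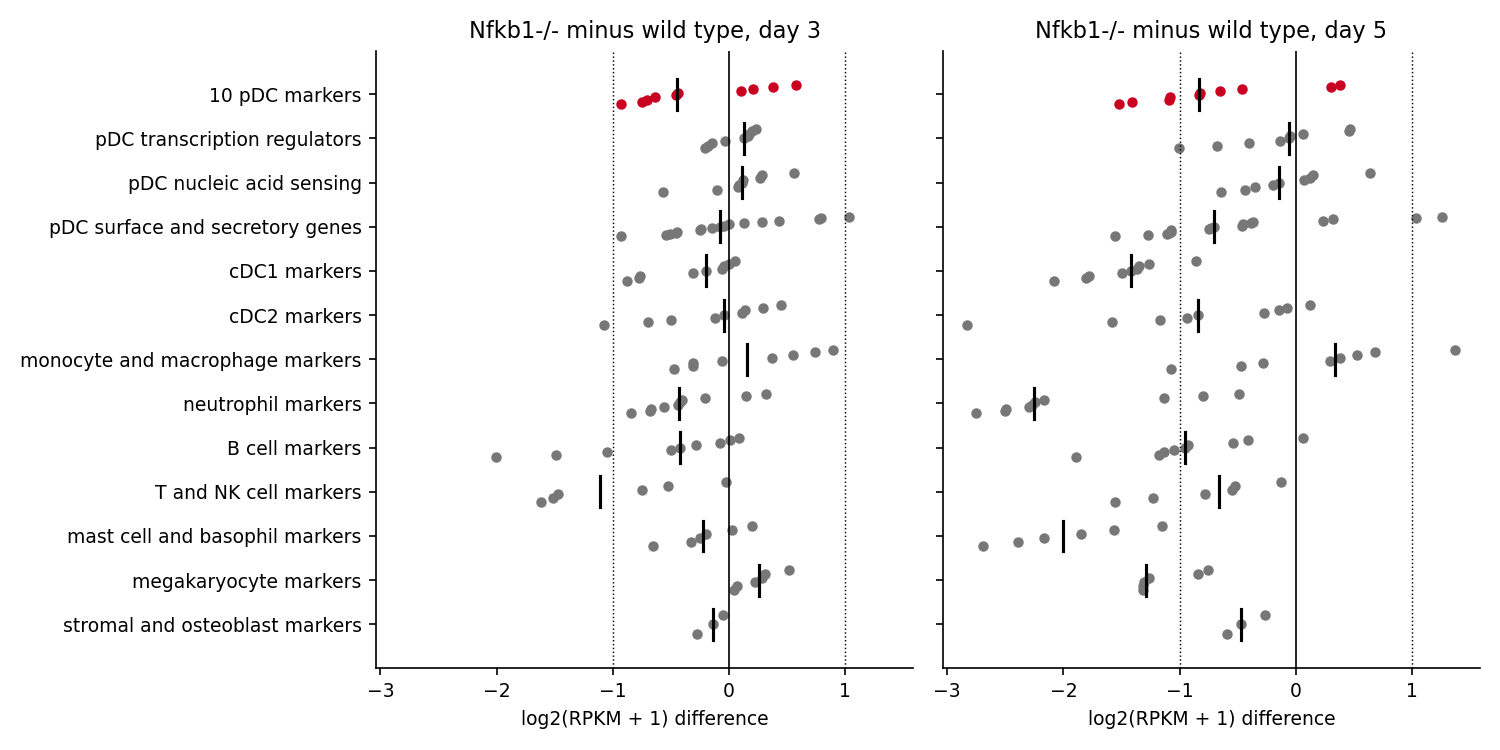
Log2(RPKM + 1) difference of Nfkb1-/- minus wild type at day 3 (left) and day 5 (right) for the 10 markers (red) and for genes of other fixed lists that passed the filter (grey), with list medians as black bars and the size rule as dotted lines. At day 5 the marker median is -0.83, the cDC1 median -1.42, the cDC2 median -0.84 and the monocyte and macrophage median 0.34.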

How the data were processed

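Polyadenylated RNA was sequenced from 4 libraries, 1 for each genotype and day. The authors deposited 1 table of RPKM values, per the file headers. HISAT2, SAMtools and the genome build mm9 are named in the submitters' processing notes. Neither the counting tool and its annotation nor the use of strand is stated in the labels or the deposited RPKM table.

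Values were compared as log2(RPKM + 1) after a filter of a mean of at least 1 RPKM. A difference of at least 1 in absolute value was past the size rule, and no test was run. The RPKM values step in whole reads. Library totals were recovered from genes among the 7985 at 1 read in every library, and were then refined on genes with more reads. Gene reads came from the smallest length that gave whole reads, or from a multiple of it when within 5% of the reference transcript's length. The tolerance for whole reads of a gene was 0.003 reads. For Ccr9, Lair1 and Cd300c the reads may be too few by a whole factor, which would make their intervals too wide. Reads carry no molecular identifiers, so the 95% intervals cover counting error only. The recovery of reads and the size rule were tested on simulated data, and the intervals were not. Python 3.11.15, numpy 2.4.6, pandas 2.3.3 and scipy 1.17.1 were used.

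The markers and gene lists were chosen with earlier results of these data known. Of the 174 genes listed, 172 were in the table. Genes were named from the lists when past the size rule between genotypes, when among the next 4 by size of the day 5 difference, or as family counterparts of a marker, and cell type lists are given by their sums, counts, leading genes and genes at 1 read. Tcf4, Tlr7, Bst2, Cbfb, Ccl25 and Sp7 were named for their role after their values were seen.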

Additional observations from a re-analysis of the deposited data

Results flagged for a closer look

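Several markers moved in opposite directions in the pairs of libraries compared, and none of these differences was tested, since each group has 1 library. Spib had a log2 difference of Nfkb1-/- minus wild type of 0.20 at day 3 and -0.84 at day 5, a change of -1.04. Atp1b1 had 0.37 at day 3 and -0.83 at day 5, a change of -1.20. Cd300c had 0.10 at day 3 and -1.09 at day 5, a change of -1.19, and its day 3 counting interval includes no difference. Cox6a2 was the one marker in the other direction, with -0.64 at day 3 and 0.38 at day 5, a change of 1.02.

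Day 5 minus day 3 also differed in sign between the genotypes for 3 markers. Atp1b1 had -0.85 in Nfkb1-/- cells and 0.35 in wild type, a gap of -1.20. Klk1 had -0.39 in Nfkb1-/- cells and 0.26 in wild type, a gap of -0.64, with counting intervals that include no change in each genotype. Lair1 had -0.12 in Nfkb1-/- cells and 0.15 in wild type, a gap of -0.27.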

How the results depend on the processing

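No paired analysis was possible because each group has 1 library, and for the same reason no library could be left out. Of 200 marker values recomputed with other pseudocounts and scalings, 173 moved by less than their counting error and 27 by more, while a filter cannot move a gene's own value. The sign changed in 2, both after median ratio scaling, for Cd300c between genotypes at day 3 (-0.04) and Lair1 over the wild-type days (-0.01). With a pseudocount of 5 RPKM, 2 markers were lower at day 5 (0.899% of all genes) with a median of -0.65, 1 was higher (0.0764%) and 0 lower (1.28%) over the Nfkb1-/- days, and the change between days was past the rule downward for 1 (0.713%) and upward for 0 (0.255%). With a minimum mean of 5 RPKM, 8 markers were left, and the median was -0.18 at day 3 and 0.62 over the wild-type days. Scaling by the median ratio moved the median of all genes at day 3 to -0.02, put 1 marker (Siglech) past the rule as lower at day 3 and gave a median of 0.30 over the wild-type days. Under that scaling 0.594% of all genes were higher and 1.32% lower at day 3. Scaling to the same sum of RPKM also put 1 marker (Siglech) past the rule at day 3 (1.06% of all genes lower), and left 0 lower over the Nfkb1-/- days (2.70%). With a rule of 1.5-fold, 4 markers were lower at day 3 (3.36% of all genes), 7 at day 5 (8.98%) and 2 over the Nfkb1-/- days (7.24%), 4 were higher over the wild-type days (8.47%), and 5 changed downward between days (10.3%). The cause of these shifts was not tested.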
